A study of Saccharomyces cerevisiae with 7 samples.

Results

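The genes described here encode the proteins of the mitochondrial ribosome of budding yeast (Saccharomyces cerevisiae). They were taken from the array annotation by name: every symbol of the form MRPL, MRPS, MRP or RSM with a number, together with RML2, IMG1, IMG2, YML6, NAM9 and PET123 where the array carried them. This gave 71 genes of 6845 genes and unnamed probes, each with 1 probe, and all 71 had enough values to be tested among 5879 features. Of the 71, 40 belong to the large subunit and 30 to the small subunit, and MRP8 carries the name but is on neither list. The naming rule itself used no measured value, but it was set with earlier results of these data known.

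The study asked how gene expression depends on Arp6 and Swr1, both part of the SWR1 complex, which places the histone variant Htz1 (H2A.Z) into nucleosomes. Swr1 is the ATPase of the complex and Arp6 an actin-related protein in it. Each of 7 dual-colour arrays set RNA of a W303 strain lacking ARP6 (arp6Δ, 4 arrays) or SWR1 (swr1Δ, 3 arrays), labelled with Cy5, against wild-type W303 RNA, labelled with Cy3. According to the labels, all strains grew in YPD, a glucose medium, at 25 °C to an optical density of 1, without further treatment. The wild type was never hybridised as a sample of its own, no array had the dyes swapped, and the sources used here do not say whether several isolates of a deletion were used. Values are log2 ratios of the deletion strain over wild type, so 0 is the wild-type level and 1 is a doubling.

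The mitochondrial ribosome translates the few messages of the mitochondrial genome, which code almost only for membrane subunits of the respiratory chain and of the ATP synthase. Nearly all of its proteins are encoded in the nucleus, made in the cytosol and imported. Many have a counterpart in the bacterial ribosome, from which it descends, and others occur only in mitochondria. Large-subunit proteins surround the site of peptide bond formation and the exit tunnel, and those of the small subunit bind the message and the decoding site. In glucose medium yeast can grow by fermentation.

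An array gave 5763 to 5910 values, with medians within 0.01 of 0. The arp6Δ arrays were wide, with 15.8% to 40.1% of features beyond 2-fold, and the swr1Δ arrays narrow, with 1.41% to 5.47%. The deleted genes followed the labels. ARP6 (YLR085C) lay between −1.28 and −0.63 on the arp6Δ arrays and between −0.09 and 0.22 on the swr1Δ arrays, and SWR1 (YDR334W) lay between −1.02 and −0.42 on the swr1Δ arrays and between 0.76 and 1.52 on the arp6Δ arrays. Over all features, arp6Δ replicates 1 and 2 correlated with r = 0.67 and replicates 3 and 4 with r = 0.84, but across these pairs r was only 0.26 to 0.37. In swr1Δ, replicates 2 and 3 correlated with r = 0.81 and replicate 1 with r = 0.49 and 0.44 with them. Features share probes, dyes and RNA within an array, so these correlations are descriptions.

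On arp6Δ replicates 1 and 2, part of the values stand beside the wrong gene. The deposited arrays were set against the part held here of a table of mean ratios that accompanies the study. Of 1984 genes with a value in that part, 1105 had deposited values that matched on their own row. For 690 the match was exact only when arrays were read from a row 1 to 4 places away in the order of gene names, in 650 of them for replicates 1 and 2 alone, and 189 found no match. In 40 replicates 3 and 4 were displaced too, with no checked mitochondrial ribosomal protein gene among them. Thus 38.4% of the matched genes were displaced. The arrays themselves gave the same picture. The mean of replicates 1 and 2 correlated with that of replicates 3 and 4 with r = 0.40 over the genes on their own row, r = 0.08 over the displaced genes as deposited and r = 0.45 once these were moved back. The swr1Δ arrays were not searched for displaced rows in this way. Among the mitochondrial ribosomal protein genes, 16 were on their own row, 7 were displaced on replicates 1 and 2, 2 found no match (IMG1 and MRP20) and 46 lay outside the part held, so that their values on replicates 1 and 2 may or may not be their own.

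The displaced values of these 7 genes could be read from their proper rows. RSM18, a small-subunit protein of the bS18 family, stood at −2.44, −1.32, 0.23 and 0.59 on arp6Δ replicates 1 to 4 as deposited, and at 0.29 and 0.50 on replicates 1 and 2 once moved back. Its apparent loss on 2 arrays was therefore not its own, and the 4 arrays lay within a narrow range above 0. MRPL7, of the large-subunit family uL5, stood at −0.71 and −2.03 on replicates 1 and 2 as deposited and at −0.11 and 0.90 moved back, with 0.32 and 0.38 on replicates 3 and 4. Its mean turned from −0.51 ± 1.13 to 0.37 ± 0.41 (SD, n = 4). The other displaced genes, IMG2, MRPL1, MRP1, RML2 and RSM23, had means of 0.08 to 0.68 as deposited and of 0.29 to 0.66 moved back. For this reason, each arp6Δ result is given on the 4 arrays as deposited and again without the doubtful values, which keeps replicates 1 and 2 only for genes with a checked row and replicates 3 and 4 for all. In that reduced data, 46 unchecked and 2 unmatched genes rest on 2 arrays that resemble each other closely, and it is not stated whether these 2 come from separate cultures.

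**Figure D1:**
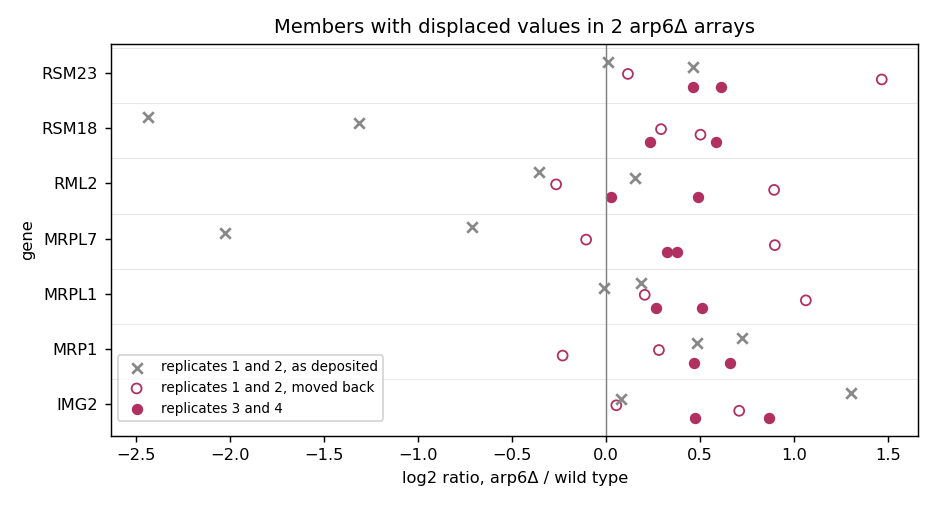
Log2 ratios of arp6Δ over wild type for the 7 members with displaced values, with crosses for replicates 1 and 2 as deposited, open circles for the same replicates moved back to their genes and filled circles for replicates 3 and 4. RSM18 and MRPL7 lie far below 0 only as deposited (−2.44 and −2.03 at the lowest), and moved back their values lie between −0.11 and 0.90.

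Mitochondrial ribosomal protein genes lay below wild type in swr1Δ and, on most arrays, above it in arp6Δ, and both shifts were small. In swr1Δ the median of the 71 genes was −0.07, −0.32 and −0.29 on replicates 1 to 3. In arp6Δ it was −0.06, 0.60, 0.30 and 0.51 on replicates 1 to 4. The median over all features was within 0.01 of 0 on every array. Replicate 1 of arp6Δ thus came close to replicate 1 of swr1Δ, and the other arp6Δ medians lay above all 3 of swr1Δ. On arp6Δ replicate 1, the widest array, the members had an SD of 0.89 against 0.75, 0.51 and 0.43 on replicates 2 to 4. On swr1Δ replicates 1 to 3 their SD was 0.24, 0.45 and 0.41. Over the members, arp6Δ replicates 3 and 4 correlated with r = 0.83 (71 genes) and replicates 1 and 2 with r = 0.57 (69 genes), while replicate 1 correlated with replicates 3 and 4 with r = 0.20 each. Members with 2 missing values, MRP20 and RSM27, lacked arp6Δ replicates 1 and 2.

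**Figure D2:**
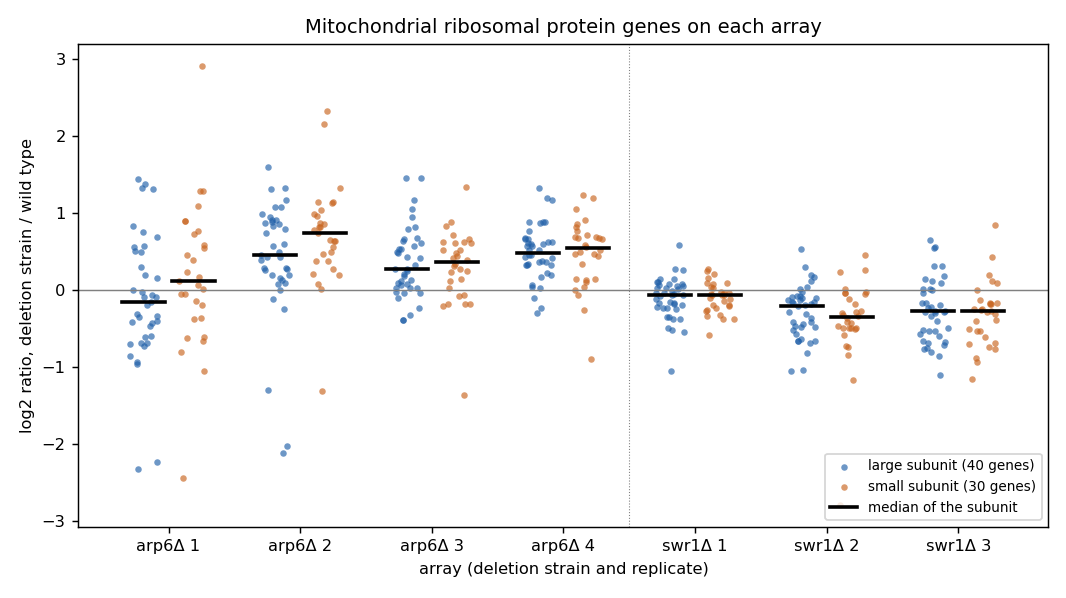
Log2 ratios of the 40 large-subunit and 30 small-subunit genes on each of the 7 arrays, deletion strain over wild type, with 1 point per gene and a bar at the median of each subunit. The medians of both subunits lie below 0 on the 3 swr1Δ arrays and above 0 on arp6Δ replicates 2, 3 and 4, and only on arp6Δ replicate 1 do they lie on both sides of 0 (−0.16 and 0.11).

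The comparison of swr1Δ with wild type asked which members change when the ATPase of the complex is absent. Of the 71 members, 17 were lower and 1 was higher in swr1Δ at an adjusted p under 0.05 (limma on the 3 swr1Δ arrays, adjusted over all features). Over all features, 10.9% were lower and 11.2% higher, so members were called lower more often than the background and called higher less often. At an unadjusted p under 0.05 the counts were 25 lower and 3 higher, against 20.7% and 20.9%. Of the 40 large-subunit genes 10 were lower and 1 was higher, and of the 30 small-subunit genes 7 were lower. By sign alone, 39 of 71 members lay below 0 on all 3 arrays and 6 above 0 on all 3, against 31.5% and 30.8% of all features. The adjusted p-values measure the spread between these 3 arrays only.

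The lowest of the called members were MRPS17, MRPL24, MRP7 and MRPS28. MRPS17 (YMR188C), the uS17 protein of the small subunit, stood at −0.59, −1.18 and −1.16 on the 3 swr1Δ arrays. All 3 lay below the 4 arp6Δ values of this gene, which ran from 0.38 to 0.95. Its mean in swr1Δ was −0.97 ± 0.34 (SD, n = 3, adjusted p = 0.0221), close to a halving of the transcript. MRPL24 (YMR193W), the bL28 protein of the large subunit, stood at −0.50, −1.05 and −1.11, which gave −0.89 ± 0.33 (n = 3, adjusted p = 0.0225). MRP7 (YNL005C), the homologue of bacterial L27, which reaches towards the peptidyl transferase centre, stood at −0.56, −1.06 and −0.82, a mean of −0.81 ± 0.25 (n = 3, adjusted p = 0.0225). Replicate 1 was the mildest array for each of these genes, as it was for MRPS28 (YDR337W), of the family uS15, at −0.38, −0.85 and −0.94 (mean −0.72 ± 0.30, n = 3, adjusted p = 0.0227).

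The remaining lower members fell by less. MRPL22, whose family uL22 lines the exit tunnel, had a mean of −0.64 ± 0.23, MRPL11 of the family uL10, which anchors the stalk in bacteria, −0.61 ± 0.25, and RSM18 −0.61 ± 0.23 (n = 3 each, adjusted p between 0.0238 and 0.0273). Between −0.56 and −0.43 lay MRPL17, RSM28, MRPL40, MRPS5, MRPL10, RSM22, MRPL27, MRPL32, MRPL16 and MRPS9. Of these, MRPS9 (YBR146W), the uS9 protein, was the smallest change called and among the most even, at −0.39, −0.51 and −0.39 (adjusted p = 0.0380). MRPL16 (uL16) stood at −0.20, −0.64 and −0.50, MRPS5 (uS5) at −0.27, −0.59 and −0.71 and MRPL10 (uL15) at −0.53, −0.67 and −0.28, each below 0 on every array.

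Only MRPL7 (YDR237W), of the family uL5, was called higher in swr1Δ. It stood at 0.57, 0.52 and 0.55, the least spread of any change described here, on average 0.55 ± 0.03 (n = 3, adjusted p = 0.0227). Other members with positive means did not pass. MRPS12 (uS12, a protein of the decoding site) stood at 0.03, 0.44 and 0.84, MRP20 (uL23, at the exit of the tunnel) at 0.07, 0.29 and 0.64, and MRP4 (uS2) at 0.07, 0.25 and 0.42. MRPL28 had 0.18 ± 0.18, MRPL8 0.14 ± 0.20, MRPS35 0.10 ± 0.12 and MRP10 0.07 ± 0.28 (n = 3 each).

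The lowest mean of all in swr1Δ belonged to MRP51 (YPL118W), which is known to act on the translation of mitochondrial messages through their leaders, and it rested on 1 array. It stood at −0.33, −2.79 and −0.53, the value on replicate 2 being the lowest of any feature on that array, and its mean of −1.22 ± 1.37 (n = 3) did not pass (adjusted p = 0.0849). MRPL4 (uL29) was the most scattered member in swr1Δ after MRP51, at −1.05, 0.04 and 0.56. These 2 genes are singled out after their values were seen.

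The swr1Δ count depended on which arrays were fitted. Without replicate 1, 39 members were lower and 4 higher, and all 18 members of the 3-array fit were among them. Without replicate 2, 2 passed (MRPL24 and MRPS17), and without replicate 3, 5 passed, of which 4 were called on all 3 arrays (MRP7, MRPL10, MRPL24 and MRPS17). Fitted together with the wider arp6Δ arrays, 0 members passed, and 13 had an unadjusted p under 0.05 in that limma fit. Shares over all features are not given for these fits, so the counts describe the fits and not the members.

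**Figure D3:**
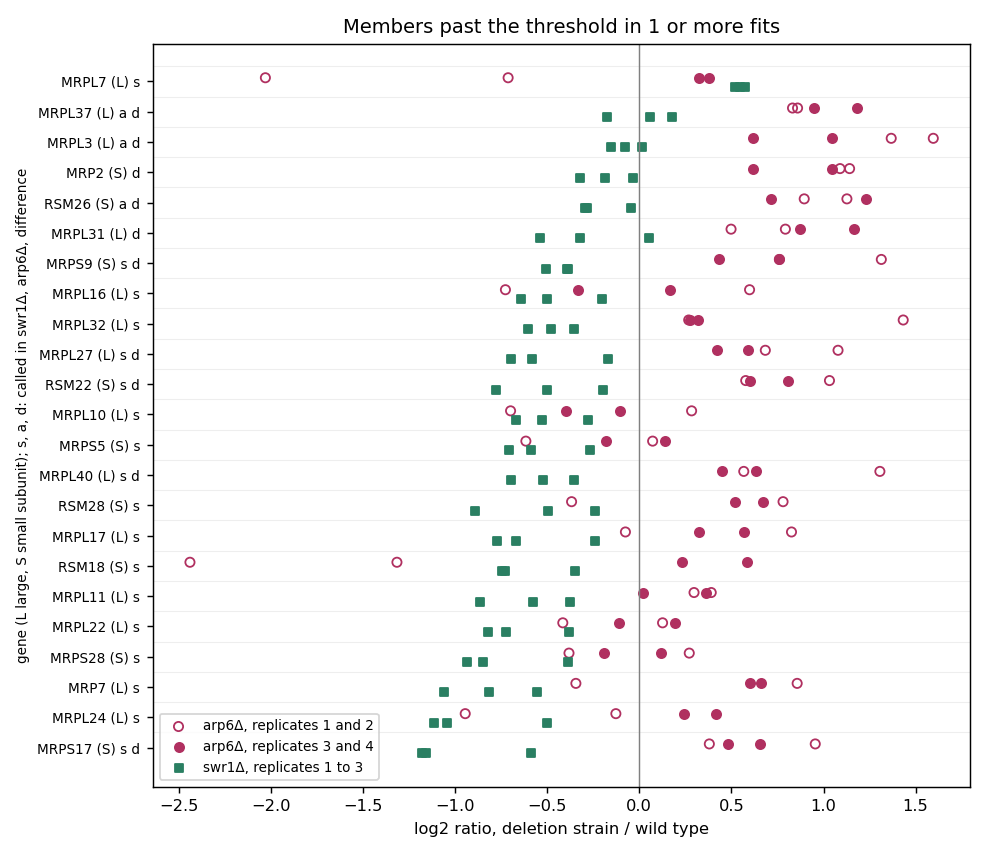
Log2 ratios of the 23 members that passed in swr1Δ (s), in arp6Δ (a) or in the difference between the mutants (d), on every array. Squares are the 3 swr1Δ arrays, open circles arp6Δ replicates 1 and 2 as deposited and filled circles arp6Δ replicates 3 and 4. For MRPS17 at the bottom the squares lie at or below −0.59 and all circles at or above 0.38.

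The comparison of arp6Δ with wild type asked the same of Arp6. On the 4 arrays as deposited, 3 of 71 members were higher, MRPL3, RSM26 and MRPL37, and 0 were lower, against 2.09% and 3.27% of all features (limma on the arp6Δ arrays). At an unadjusted p under 0.05, 20 members were higher and 1, MRP8, was lower, against 14.4% and 15% of all features. Without the doubtful values 9 members were higher and 1 lower, against 9.77% and 11.5%, and 7 of these 10 rested on replicates 3 and 4 alone. A fit of replicates 3 and 4 for every gene, whose p-values measure the spread of 2 like arrays only, called 32 members higher and 2 lower, against 20.5% and 22.9% of all features. Only MRPL37 and RSM26 were called both on the 4 arrays and without the doubtful values. The calls on the 4 arrays were not firm: 0 members passed when any 1 arp6Δ array was left out, and 0 with the pairs of like arrays, 1 with 2 and 3 with 4, as a random block. No shares over all features are given for these alternative fits, so their counts describe the fits and not the members. By sign, 54 of 71 lay above 0 on both replicates 3 and 4 and 7 below 0 on both, against 40% and 40.7% of all features. On all 4 arrays 27 of 69 lay above 0 and 2 below 0, against 20.6% and 19.8%.

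MRPL37 (YBR268W), a large-subunit protein of the mitochondrial family mL54, had a checked row and was called with and without the doubtful values. It stood at 0.83, 0.86, 0.95 and 1.18 on replicates 1 to 4, with no overlap with its swr1Δ values of 0.06, −0.18 and 0.18. Its mean was 0.96 ± 0.16 (SD, n = 4), that is 1.94-fold, with an adjusted p of 0.0471, and of 0.0111 without the doubtful values (0.000584 to 0.215 over all alternatives). RSM26 (YJR101W), the mS42 protein, which resembles manganese superoxide dismutases, stood at 0.90, 1.13, 0.71 and 1.23, a mean of 0.99 ± 0.23 (n = 4, adjusted p = 0.0472). On replicates 3 and 4 its mean was 0.97 and its adjusted p 0.0475 in the reduced fit (0.00162 to 0.191 over all alternatives). MRPL3 (YMR024W), the mL44 protein, whose fold is that of ribonuclease III, stood at 1.37, 1.60, 1.05 and 0.62, a mean of 1.16 ± 0.42 (n = 4, adjusted p = 0.0471). Its higher values were those on replicates 1 and 2, of unchecked register, and without them it stood at 0.83 on average with adjusted p = 0.0580 (0.00377 to 0.160 over all alternatives).

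Several other members had like means without passing. MRP2 (YPR166C), of the family uS14, stood at 1.09, 1.14, 0.62 and 1.05 (adjusted p = 0.0503), MRPL31 (mL60) at 0.50, 0.79, 1.17 and 0.87 (adjusted p = 0.0673) and MRPL40 (uL24) at 0.57, 1.31, 0.63 and 0.45 (adjusted p = 0.0991). All 12 of these values lay above 0. The highest means of the small subunit were less even. MRPS35 (mS45) stood at 2.90, 2.15, 0.38 and 0.49 and RSM19 (uS19) at 1.28, 2.32, 0.31 and 0.90, so that both owed their rank to replicates 1 and 2, where their register was not checked.

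Without the doubtful values, the members called higher beside MRPL37 and RSM26 were MRPL4, IMG1, MRPS9, MRPL27, MRPL31, MRP20 and MRP4. MRPS9 (YBR146W), on its own row, stood at 0.76, 1.31, 0.43 and 0.76 and had an adjusted p of 0.0240 in that fit (0.0124 to 0.224 over all alternatives). MRPL27 (YBR282W), a protein of the family mL41 and also on its own row, stood at 0.68, 1.08, 0.42 and 0.59, with an adjusted p of 0.0251 (0.0204 to 0.256 over all alternatives). Both genes were among those called lower in swr1Δ. MRPL4 (YLR439W), at the tunnel exit as uL29, stood at −2.23, 0.91, 1.45 and 1.32, and IMG1 (YCR046C), of the family bL19, at −0.70, 0.57, 1.45 and 1.16. These 2 genes had the highest means of all members over replicates 3 and 4, while replicate 1 put them below wild type.

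At the lower end of arp6Δ, the 4-array means of MRPL9 and RSM18 were the lowest of their subunits, and neither kept its sign. MRPL9 (YGR220C), of the family uL3, stood at −2.33, −2.12, −0.05 and 0.32, and on replicates 3 and 4 its mean was 0.14. RSM18 was displaced, as described above. RSM10 (YDR041W), of the family uS10 and on its own row, stood at −0.63, 0.21, −1.37 and −0.90, a mean of −0.67 ± 0.66 (n = 4, adjusted p = 0.186). MRPL23 (uL13) stood at −0.86, −0.25, −0.40 and −0.24 and was the large-subunit gene below 0 on every arp6Δ array. MRPL10 had −0.23 ± 0.42, MRPS5 −0.15 ± 0.34 and RSM7 (uS7) −0.22 ± 0.39 (n = 4 each).

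MRP8 (YKL142W) bears the family name although the protein is known as cytoplasmic, and in arp6Δ it lay below most other members. It stood at −0.91, −0.55, −1.48 and −1.05 in arp6Δ, that is −0.998 ± 0.383 on average (n = 4, adjusted p = 0.0570), and without the doubtful values it was called lower, at −1.27 on average with adjusted p = 0.0262 (0.000204 to 0.284 over all alternatives). In swr1Δ it stood at −0.20, −0.61 and −0.35 (adjusted p = 0.0644).

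The test of the difference between the mutants, arp6Δ minus swr1Δ over all 7 arrays, called 10 of 71 members higher in arp6Δ and 0 lower, against 3.13% and 3.9% of all features. This fit treated the 7 arrays as independent, although the arp6Δ arrays resembled each other in pairs. No fit of the difference took these pairs into account. At an unadjusted p under 0.05, 29 members were higher and 0 lower in this limma fit, against 15.1% and 13.9%. Without the doubtful values 23 members were higher and 1, MRP8, was lower, against 13.2% and 14.4% of all features, and all 10 were among the 23. Of these 24 calls, 16 rested on arp6Δ replicates 3 and 4 alone. Among the 10, this was so for MRP2, MRPL3, MRPL31, MRPL40, MRPS17, RSM22 and RSM26. Of the 10, 5 belong to the large subunit and 5 to the small one. The count rested on every array of swr1Δ, since 0 members passed without any 1 of replicates 1, 2 and 3, and on arp6Δ replicate 4, without which 0 passed as well, while 4 passed without arp6Δ replicate 3 and 23 without replicate 1. Shares over all features are not given for these fits with an array left out, so these counts describe the fits and not the members.

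The 10 members differed by 0.94 to 1.59 on the log2 scale. MRPS17 had the widest gap, 1.59 with a standard error of 0.26 (adjusted p = 0.0256), made up of 0.62 ± 0.25 in arp6Δ (n = 4) and −0.97 ± 0.34 in swr1Δ (n = 3). MRPL40 differed by 1.26 (adjusted p = 0.0391), MRPS9 by 1.246 (adjusted p = 0.0375), RSM22 by 1.24 (adjusted p = 0.0341) and MRPL27 by 1.18 (adjusted p = 0.0399), and all of these were lower than wild type in swr1Δ by their own test. RSM22 (YKL155C), which resembles rRNA methyltransferases, stood at 0.58, 1.03, 0.60 and 0.81 in arp6Δ against −0.20, −0.50 and −0.78 in swr1Δ. The other 5 did not pass in swr1Δ, where their means lay between −0.27 and 0.02. MRPL3 differed by 1.23 (adjusted p = 0.0412), RSM26 by 1.20 (adjusted p = 0.0326), MRP2 by 1.15 (adjusted p = 0.0348), MRPL31 by 1.10 (adjusted p = 0.0448) and MRPL37 by 0.94 (adjusted p = 0.0448). For each of the 10 genes every arp6Δ value lay above every swr1Δ value, and this was so for 32 of 69 members with all 7 values, against 16.8% of all features. The opposite order held for 2 of 69, against 15.3%.

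Gene by gene, members that were low in swr1Δ were not simply those that were high in arp6Δ. Above 0 on arp6Δ replicates 3 and 4 and below 0 on all 3 swr1Δ arrays were 26 of 71 members, against 11.3% of all features. Below 0 on arp6Δ replicates 3 and 4 and on all 3 swr1Δ arrays were 4 members, RSM10, MRP8, MRPL10 (uL15) and PET123, against 14% of all features, and MRP4 and MRP20 were above 0 on every array that measured them. RSM10, MRP8, MRPL10 and MRPS28 show that a low value in swr1Δ went with various values in arp6Δ: on replicates 3 and 4 their means were −1.13, −1.27, −0.25 and −0.04.

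**Figure D4:**
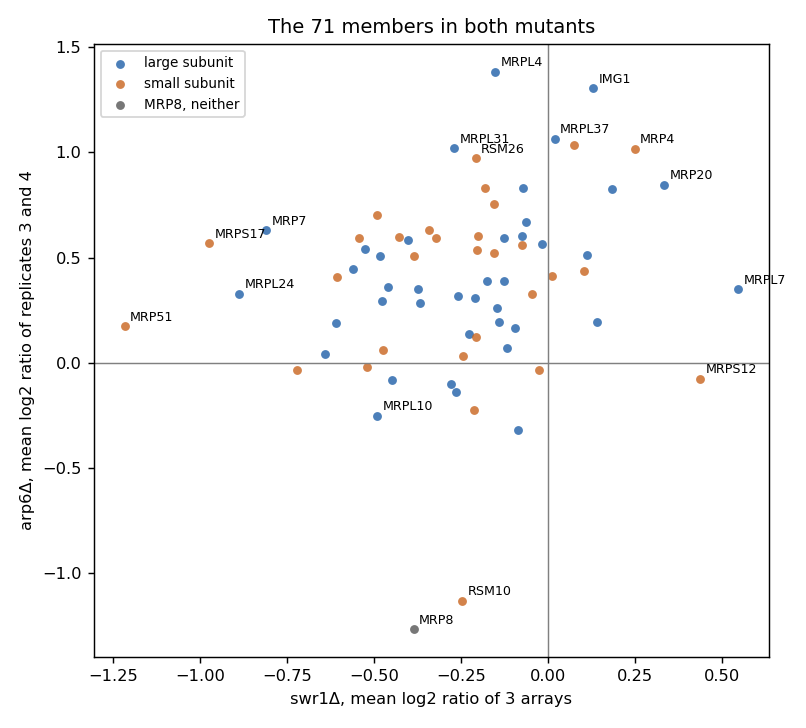
Mean log2 ratio of each of the 71 members over the 3 swr1Δ arrays (x axis) and over arp6Δ replicates 3 and 4 (y axis), coloured by subunit, with 16 genes named. Most points lie to the upper left, above wild type in arp6Δ and below it in swr1Δ, while RSM10 and MRP8 stand apart at the bottom (−1.13 and −1.27 on the y axis).

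The medians of the large and the small subunit lay on the same side of 0 on every array except arp6Δ replicate 1. In swr1Δ the median of the large subunit was −0.07, −0.21 and −0.28 on replicates 1 to 3 and that of the small subunit −0.07, −0.35 and −0.28, a difference, large minus small, of 0.05 ± 0.08 (SD, n = 3 arrays). In arp6Δ the large subunit had −0.16, 0.45, 0.27 and 0.48 and the small subunit 0.11, 0.73, 0.36 and 0.54 on replicates 1 to 4, a difference of −0.17 ± 0.12 (n = 4 arrays). The small-subunit median was the higher on each arp6Δ array, by 0.27 and 0.28 on replicates 1 and 2 and by 0.09 and 0.06 on replicates 3 and 4. Above 0 on all 4 arp6Δ arrays were 15 of 29 small-subunit and 12 of 39 large-subunit genes, against 20.6% of all features, and at an unadjusted p under 0.05 13 of 30 and 7 of 40 were higher, against 14.4%. On replicates 3 and 4, 23 of 30 and 31 of 40 lay above 0 on both arrays, against 40% of all features. With 4 arrays against 3 and genes that share each array, no test of a subunit was made.

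A split by descent gave a wider gap. By the family names of the reference annotation, 44 members belong to families shared with bacteria and 25 to families of mitochondria alone, while RSM22 and MRP8 had no family name. In arp6Δ the median of the bacterial families was −0.09, 0.42, 0.20 and 0.40 on replicates 1 to 4, and that of the mitochondrial families 0.08, 0.81, 0.52 and 0.59. The bacterial families were lower on each of the 4 arrays, by 0.27 ± 0.10 on average (n = 4). On replicates 3 and 4 all but 1 of the 25 mitochondrial-family genes, the exception being PET123 (mS26), lay above 0, against 29 of the 44 bacterial-family genes. The 3 genes called on the 4 arrays, MRPL3, RSM26 and MRPL37, were of mitochondrial families (3 of 25 and 0 of 44, against 2.09% of all features), but without the doubtful values 4 of 25 and 5 of 44 were called higher, against 9.77%. In swr1Δ the bacterial families stood at −0.15, −0.39 and −0.30 and the mitochondrial ones at 0.01, −0.20 and −0.26, and 13 of 44 and 3 of 25 were called lower, against 10.9% of all features, so that the count of the mitochondrial families was near the background. The gap in swr1Δ was 0.13 ± 0.08 (n = 3). This split was looked at with results of these data known, and it was not tested.

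Related genes of mitochondrial translation were set beside these. Genes of the mitochondrial ribosome with other symbols, 7 measured of 8 listed, stood at medians of 0.02, 0.71, 0.41 and 0.61 in arp6Δ and of 0.10, 0.00 and 0.01 in swr1Δ. In swr1Δ 1 of 7, RTC6, was higher (0.41 ± 0.15, n = 3, adjusted p = 0.0479), near the 11.2% of all features. SWS2, a small-subunit protein, was their highest in arp6Δ, at 1.08, 0.86, 0.59 and 0.88 (adjusted p = 0.0591), and EHD3 their lowest, at −1.02, 0.31, 0.41 and 0.39. Mitochondrial aminoacyl-tRNA synthetases, which charge the tRNAs of the organelle, were lower in swr1Δ in 4 of 12 cases, where 10.9% of all features were lower. These were MSE1 (−0.51 ± 0.14), MST1 (−0.51 ± 0.19), MSY1 (−0.49 ± 0.21) and MSF1 (−0.41 ± 0.11), with n = 3 each and adjusted p-values from 0.0295 to 0.0441. In arp6Δ 0 of the 12 passed in limma and 3 were higher at an unadjusted p under 0.05, against 14.4% of all features. MSF1 was the highest, at 0.66, 1.84, 0.68 and 0.93 (adjusted p = 0.0706).

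In the other lists of mitochondrial gene expression, every gene called in swr1Δ was lower than wild type, against a background of 10.9% lower and 11.2% higher, and the counts of the shorter lists were 1 or 2 genes each. Of 15 measured genes for translational activators and membrane insertion, 4 were lower in swr1Δ: AEP2 (−0.60 ± 0.15), needed for the ATP synthase subunit 9 message, PET111 (−0.57 ± 0.17), the activator of COX2, CBP6 (−0.55 ± 0.08), which acts on cytochrome b, and the ribosome receptor MBA1 (−0.40 ± 0.09). AEP2 was also the lowest of this list in arp6Δ, at −1.31, −0.79, −0.71 and −0.51 (adjusted p = 0.0742), and PET309 the highest, at −0.12, 0.50, 1.16 and 0.44. Among 9 measured assembly factors, 2 were lower in swr1Δ. MSS116, an RNA helicase of intron splicing, stood at −0.90, −1.11 and −0.98 (mean −0.998 ± 0.108, n = 3, adjusted p = 0.0214), lower than any called member, and RMD9 had −0.39 ± 0.09 (adjusted p = 0.0479). Among genes measured on all 4 arp6Δ arrays, to which the ends of these lists are limited, the highest assembly gene in arp6Δ was MRM1 (0.80 ± 0.44, adjusted p = 0.0937) and the lowest MTG2 (−0.59 ± 0.40). Translation factors had 1 of 9 lower in swr1Δ, GUF1 (−0.43 ± 0.19, adjusted p = 0.0480), with MEF1 (0.46 ± 0.70) and MEF2 (−1.28 ± 0.94) at the ends of the list in arp6Δ. In mitochondrial transcription and genome maintenance 1 of 4 was lower in swr1Δ, MTF1 (−0.41 ± 0.14, adjusted p = 0.0457), and ABF2 had the lowest mean in arp6Δ (−0.58 ± 0.47). On the 4 arp6Δ arrays 0 genes of these 4 lists passed in limma, and 1 was higher and 3 were lower at an unadjusted p under 0.05, against 14.4% and 15% of all features.

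The genes of the respiratory chain and the ATP synthase, only some of which have partners made by this ribosome, lay the other way in arp6Δ. Of 37 nuclear-encoded genes measured, 12 were lower and 0 higher in arp6Δ, against 3.27% and 2.09% of all features. Without the doubtful values 25 were lower and 1 higher, against 11.5% and 9.77%. The median of the 37 genes was −1.45, −0.61, −1.12 and −1.08 on the 4 arp6Δ arrays and 0.01, 0.16 and 0.21 in swr1Δ. In swr1Δ 4 were higher and 3 lower, near the 11.2% and 10.9% of all features. NDE2, an external NADH dehydrogenase, was the lowest in arp6Δ, at −4.59, −3.02, −1.75 and −1.67 (adjusted p = 0.0384), and ATP15 had the highest mean, at −0.42, 0.12, 0.06 and −0.13, and in swr1Δ ATP15 was higher by 1.09 ± 0.31 (n = 3, adjusted p = 0.0214). In the difference between the mutants 14 of the 37 genes were lower and 0 higher, against 3.9% and 3.13% of all features. Of 124 cytosolic ribosomal protein genes, 31 were higher and 0 lower in arp6Δ, against 2.09% and 3.27% of all features. The medians of the 124 genes were 1.44, 0.57, 0.96 and 1.36, above those of the mitochondrial ribosome on every arp6Δ array but replicate 2. At an unadjusted p under 0.05 in limma, 0 respiratory genes were higher in arp6Δ or in the difference, against 14.4% and 15.1% of all features. By the same limit 1 cytosolic ribosomal protein gene was lower in arp6Δ, against 15% of all features. In swr1Δ their medians were 0.31, 0.12 and 0.10, above 0, with 24 higher and 3 lower, where the mitochondrial ribosomal protein genes were below 0. RPS22A was their highest gene in arp6Δ, at 3.53, 0.95, 2.34 and 2.40 (adjusted p = 0.0378), and RPS8B the lowest of those measured on all 4 arrays, at −3.57, −4.04, 1.30 and 1.46, a displaced gene.

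**Figure D5:**
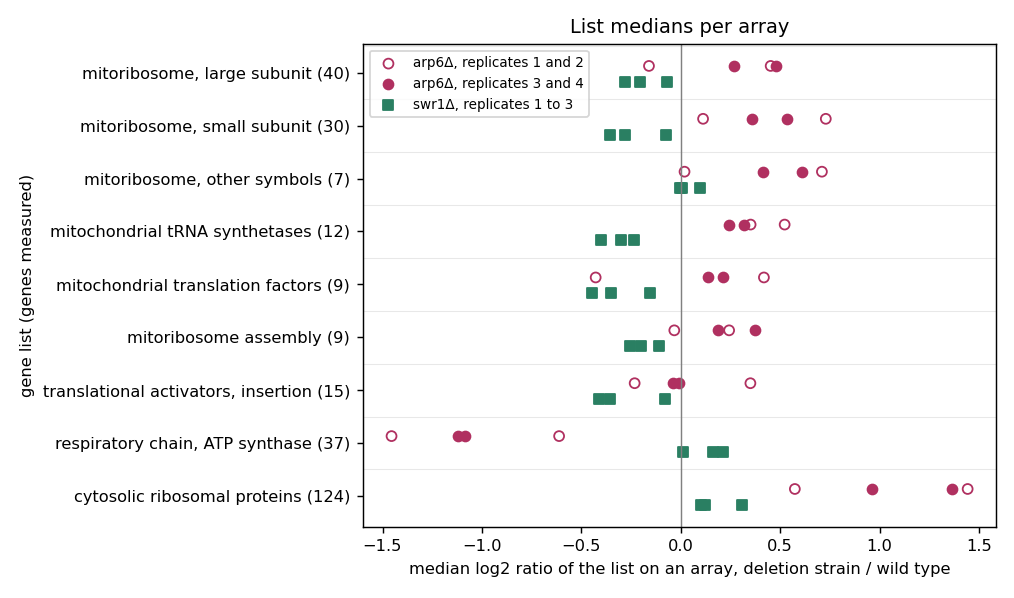
Median log2 ratio of each gene list on each array, deletion strain over wild type, with 1 point per array (open circles arp6Δ replicates 1 and 2, filled circles arp6Δ replicates 3 and 4, squares swr1Δ) and the number of genes measured in brackets. The respiratory chain list lies between −1.45 and −0.61 in arp6Δ while both mitoribosome subunits lie above 0 on arp6Δ replicates 2 to 4.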

How the data were processed

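The authors deposited log2 ratios of mutant to wild-type signal, a single value for each probe on an array, already normalised and centred. How they were scanned, background-corrected, normalised and filtered was not given in the sources used here. With no intensities, precision is limited by the number of arrays. Per the labels RNA was taken with hot phenol and oligo(dT), and the study's array methods give another temperature and reagent and at least 3 independent cultures. The deposited log2 table held 6912 probes, 5945 with values and 5446 with a gene symbol, and symbols were updated through a reference gene table. It named no genome build, so no coordinates are given, and no sequence or promoter table was used here, which left a planned promoter search undone.

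Features needed at least 2 arrays per mutant (5879, of which 5344 are named genes). Each mutant's own arrays were fitted against 0, and the difference over all 7 arrays, in limma 3.58.1 (R 4.3.3; lmFit, then eBayes), with 2-sided tests called at 0.05 after Benjamini-Hochberg adjustment across the whole table. A trial of the fitting on made-up values was also run. No outcome of that trial is given here, so it lends no weight to the calls. A fixed dye effect cannot be told apart from a mutant's effect against wild type but drops out of the difference. Alternatives were other fits, scalings, priors, left-out arrays, displaced values moved back and the methods' t-test. Rows were matched to the study's means within a relative tolerance of 3e-06. Tables and plots were made in Python 3.11.15 (pandas 2.3.3, matplotlib 3.10.9).

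Members and lists were chosen with earlier results of these data known. Named were members that passed a fit (where over 12 passed, the 8 highest and 4 lowest), the 4 highest and 4 lowest of each subunit in each mutant, MRP8, the deleted genes and the ends of each list in arp6Δ. Other genes named to account for a count, and MRP51, MRPL4 and IMG1, were chosen after their values were seen.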

Additional observations from a re-analysis of the deposited data

Results flagged for a closer look

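In 10 members the effect of losing Arp6 and the effect of losing Swr1 differed by the limma test of the difference itself. That test treated all arrays as independent, although the arp6Δ arrays resembled each other in pairs. The differences, arp6Δ minus swr1Δ on the log2 scale, were 1.59 for MRPS17, 1.26 for MRPL40, 1.246 for MRPS9, 1.24 for RSM22, 1.23 for MRPL3, 1.20 for RSM26, 1.18 for MRPL27, 1.15 for MRP2, 1.10 for MRPL31 and 0.94 for MRPL37. The median of the small-subunit members lay above 0 on every arp6Δ array and below 0 on every swr1Δ array, and the mean medians were 0.67 apart, a difference that was not tested. The large-subunit medians had the same signs on every array except arp6Δ replicate 1, with means of 0.26 in arp6Δ and −0.19 in swr1Δ.

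RSM7 had 1 sample far from the others: on arp6Δ replicate 1 it stood at −0.81, and on the other arp6Δ arrays between −0.07 and 0.01. Chance alone marks about 1 in 20 groups of 4 independent values of like spread this way. Here arp6Δ replicate 1 was the widest array, and its register was not checked for RSM7. MRPL4 likewise had 1 value far from the others, −2.23 on arp6Δ replicate 1 against 0.91 to 1.45 on the other 3 arrays, and its register was not checked either.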

How the results depend on the processing

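Counts of members called changed with the processing. Medians of both subunits and their difference stayed within 1 SD of the reported values under every alternative run. That SD is the spread between the same array medians. Leaving out 1 array, or keeping arp6Δ replicates 3 and 4 alone, could therefore not have moved a mean further, and these alternatives show nothing about stability. In arp6Δ, where 3 members passed, 22 passed with all 7 arrays in 1 fit, 18 by the methods' t-test at its unadjusted limits and 0 after Benjamini-Hochberg adjustment of it, 6 with arrays scaled to 1 spread, 0 with replicates 1 with 2 and 3 with 4 as a random block (15 at an unadjusted p under 0.05), 10 with doubtful values left out and 34 with replicates 3 and 4 alone. Leaving out 1 arp6Δ array gave 0 each time, with 13 to 32 members at an unadjusted p under 0.05. In swr1Δ, where 18 passed, 0 passed with all 7 arrays in 1 fit, 10 and 0 by the methods' t-test before and after adjustment, and 2 to 43 without 1 array. For the difference, where 10 passed, 29 and 4 passed by the methods' t-test before and after adjustment, 22 with scaled arrays, 24 with doubtful values left out, 42 with arp6Δ replicates 3 and 4 alone against swr1Δ, and 0 to 23 without 1 array, with 18 to 40 at an unadjusted p under 0.05. With all 7 arrays in 1 arp6Δ fit, 13.2% of all features were higher and 13.6% lower. With arp6Δ replicates 3 and 4 alone, 20.5% were higher and 22.9% lower. Where no share of all features is given, a count describes the fit and not the members. The causes of the changes in the counts were not tested. A prior with an intensity trend was not run because the table holds no intensities.

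Replicate numbers did not pair the samples: the deviations of arrays with the same number correlated with r = 0.02, 0.05 and −0.05. With the replicate block 0 members passed in the difference and 20 had an unadjusted p under 0.05.

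Over 77 pairs of a gene and a comparison, directions turned for 11 members, none of them called in that comparison on all its arrays as deposited. MRPL4 and IMG1, which turned in arp6Δ, were called higher there without the doubtful values. In arp6Δ, MRPL7 stood at 0.37 moved back or with doubtful values left out and 0.35 on replicates 3 and 4, RSM18 at 0.40, 0.40 and 0.41, MRPL9 at 0.14 with doubtful values left out and on replicates 3 and 4, and MRPS5 between −0.24 and 0.0095 without 1 array, above 0 only without replicate 1. MRPL4 stood at −0.66, IMG1 at −0.065 and RML2 at −0.10 on replicates 1 and 2 alone, and PET123 at −0.22 with doubtful values left out and on replicates 3 and 4. Without 1 arp6Δ array, MRPL4 ranged from −0.0027 to 1.22, RML2 from −0.057 to 0.22, MRPS28 from −0.15 to 0.066 and PET123 from −0.085 to 0.43. In swr1Δ, MRPL4 ranged from −0.51 to 0.30 and MRPL37 from −0.059 to 0.12 without 1 array, and MRP10 ranged from −0.012 to 0.24 without 1 array and was below 0 without replicate 1 or 2. Leaving out doubtful values and fitting pairs of arrays alone were chosen after seeing the data.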
